A study of Mus musculus with 6 samples.

Results

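The genes described here encode nuclear subunits of the 5 complexes of oxidative phosphorylation, together with the assembly factors that carry the same name stems. They were chosen by gene symbol alone, as every named gene on the array whose symbol begins with Ndufa, Ndufb, Ndufc, Ndufs, Ndufv, Sdha, Sdhb, Sdhc, Sdhd, Uqcr, Cox4i, Cox5, Cox6, Cox7a, Cox7b, Cox7c, Cox8 or Atp5. This gave 93 members among 17178 named genes, measured by 118 probes. They comprise 75 subunits made in nearly all tissues (35 of complex I, 4 of complex II, 8 of complex III, 11 of complex IV and 17 of complex V). The other members are 10 assembly factors, the 3 muscle isoforms Cox6a2, Cox7a1 and Cox8b, 4 isoforms restricted to other tissues, and Cox7a2l. The last is classed as a factor of supercomplexes, which are assemblies of whole complexes. Ndufa4 is named for complex I but is counted with complex IV, to which it belongs. Cyc1, the cytochrome c1 of complex III, has another name stem and is given apart.

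The samples were dorsal root ganglia, which hold the cell bodies of sensory neurons with satellite glia and Schwann cells, from 3 dt27J and 3 wild-type (WT) mice of the C57BL/6 background at postnatal day 4. dt27J is a mutant allele of Dst, which encodes the cytoskeletal linker protein dystonin, and the WT animals were littermates. The series title places this age before the phenotype, so the comparison asks which transcripts differ at that stage. Animals came from 2 litters, and each RNA went onto 1 single-colour Agilent array; dt27J 1, dt27J 2, WT 1 and WT 2 carry the first of 2 label dates, and dt27J 3 and WT 3 the second. The slide follows the date, and the labels do not say how dates relate to litters. Labels give no Cre, transgene or pooling for either genotype.

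Oxidative phosphorylation passes electrons from NADH (complex I) and succinate (complex II) to ubiquinone, then through complex III and cytochrome c to complex IV, which reduces oxygen. Complexes I, III and IV pump protons across the inner mitochondrial membrane, and complex V, ATP synthase, uses their return to make ATP. Most subunits are nuclear-encoded, and sensory neurons, with their long axons, depend on this ATP for transport and excitability. Cytochrome oxidase has small subunits with alternative isoforms, of which the muscle forms are made in heart and skeletal muscle and, for some, in brown fat.

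All values are log2 processed signals set against the 75th percentile of their own array, so 0 is that percentile and 1 unit is a doubling of signal. Levels of different probes cannot be set against each other. The 75th percentile lay at a signal between 369.5 and 580, each array had between 63.16% and 71.51% of its probes well above background, and no spot was saturated. The 3 Dst probes were all lower in dt27J ganglia. The brightest read -1.63, -1.77 and -0.96 in dt27J and 1.15, 1.44 and 1.1 in WT, a difference of -2.68 ± 0.26 (SE, n = 3 each; limma adjusted p = 0.0341). Whether these probes lie in the part of Dst altered by the allele is not known here. Of the 12 sensory neuron markers, all were measured; 11 were lower in dt27J, with a median difference of -0.58. In bulk tissue, fewer cells of a type and less RNA per cell cannot be told apart.

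To show the regulatory sequence that belongs to the isoforms compared here, 5 promoters follow, read 5′ to 3′ on the gene's own strand from RefSeq, assembly GRCm38.p6. Each runs from 250 bases before to 50 bases after the gene's start. Capitals mark matches, on either strand, to any of 6 motifs that were searched. For the factor NRF1 the letters were GCGCATGC. For the ETS family, which includes GABP, they were CCGGAAG. The letters of YY1 were AAGATGGCG. Those of the oestrogen-related receptors (ERR) were TCAAGGTCA. An E-box, known from muscle genes, was searched as CAGCTG. The TATA box was searched as TATAAA. The windows are chr7:140900397-140900696 on the minus strand for Cox8b, chr19:7217567-7217866 on the minus strand for Cox8a, chr7:30183921-30184220 on the plus strand for Cox7a1, chr9:79759804-79760103 on the minus strand for Cox7a2 and chr5:115348909-115349208 on the minus strand for Cox6a1.
Cox8b: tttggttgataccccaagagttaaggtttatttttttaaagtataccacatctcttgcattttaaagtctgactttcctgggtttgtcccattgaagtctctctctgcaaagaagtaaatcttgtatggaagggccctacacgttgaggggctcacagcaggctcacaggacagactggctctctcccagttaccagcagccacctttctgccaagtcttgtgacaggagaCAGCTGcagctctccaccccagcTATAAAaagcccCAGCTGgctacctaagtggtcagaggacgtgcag
Cox8a: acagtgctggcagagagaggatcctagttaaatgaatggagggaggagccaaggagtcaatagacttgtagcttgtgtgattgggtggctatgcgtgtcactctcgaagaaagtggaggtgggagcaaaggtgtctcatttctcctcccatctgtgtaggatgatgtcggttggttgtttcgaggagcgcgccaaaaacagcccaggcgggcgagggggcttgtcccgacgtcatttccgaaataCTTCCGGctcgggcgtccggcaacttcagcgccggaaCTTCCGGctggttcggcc
Cox7a1: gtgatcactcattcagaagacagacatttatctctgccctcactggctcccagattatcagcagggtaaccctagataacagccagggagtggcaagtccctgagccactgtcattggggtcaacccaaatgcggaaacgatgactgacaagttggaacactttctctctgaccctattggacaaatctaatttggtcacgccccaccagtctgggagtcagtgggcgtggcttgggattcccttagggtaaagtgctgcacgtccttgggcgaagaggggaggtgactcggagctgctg
Cox7a2: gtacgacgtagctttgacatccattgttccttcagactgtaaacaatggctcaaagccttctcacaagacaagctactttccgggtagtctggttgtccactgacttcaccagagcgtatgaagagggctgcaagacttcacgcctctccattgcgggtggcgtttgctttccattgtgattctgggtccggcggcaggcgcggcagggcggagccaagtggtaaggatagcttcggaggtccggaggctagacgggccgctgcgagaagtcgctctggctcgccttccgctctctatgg
Cox6a1: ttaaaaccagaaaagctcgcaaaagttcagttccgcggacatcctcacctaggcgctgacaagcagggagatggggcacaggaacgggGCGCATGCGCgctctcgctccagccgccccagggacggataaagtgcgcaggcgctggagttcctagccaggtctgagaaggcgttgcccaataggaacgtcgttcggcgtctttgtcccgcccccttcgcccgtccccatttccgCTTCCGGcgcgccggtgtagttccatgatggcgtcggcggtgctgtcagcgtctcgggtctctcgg
The Cox8b window, of a muscle isoform, held 2 E-boxes and 1 TATA box. That of its ubiquitous partner Cox8a held 2 ETS motifs, and that of Cox6a1 held 1 ETS motif and a palindromic NRF1 site that matches on both strands. Neither Cox7a window held any of these letters. The ratio of observed to expected CpG was 0.11 in Cox8b and 0.33 in Cox7a1, against 0.84 in Cox8a, 0.83 in Cox7a2 and 1.08 in Cox6a1.

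Promoter windows were found for 77 of the 93 members (82 windows), and they shared a base composition that the name rule did not use. Their median CpG ratio was 0.83, against 0.38 over all 32851 windows, and their median GC content 58.5%, against 52.7%. The ETS motif occurred in 21 of 82 windows (25.6%), against 8.86% of all windows, and the NRF1 motif in 11 (13.4%), against 2.71%. YY1 letters occurred in 7 (8.54%, against 1.4%) and the ERR motif in 2 (2.44%, against 0.423%). The E-box, in 6 windows (7.32%), and the TATA box, in 10 (12.2%), occurred in 16.3% and 13.6% of all windows. A match is a description of letters and not a site of binding, and the windows were not matched for GC content.

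No member passed the threshold between genotypes. Of the 93 members, 90 were tested, and all 90 were well above background on all 6 arrays; Cox4i2, Cox7b2 and Cox8c were not tested. Among the 90, 0 were higher and 0 lower at a limma adjusted p of 0.05, while 3.19% of all 26248 tested probes passed (1.31% higher, 1.88% lower). At an unadjusted p of 0.05, 3 members passed (Cox8b, Atp5e and Ndufa10), which is 3.33% of them, against 27.7% of all tested probes. The values of the 2 genotypes did not overlap for 1 member that was higher in dt27J (Atp5e) and 9 that were lower, against 12.8% and 16% of all tested probes. These 9 were Ndufa10, Ndufa5, Ndufab1, Ndufs1, Ndufv1, Ndufaf6, Sdhb, Uqcrb and Atp5d. The median difference was -0.03 over the 90 members and -0.05 over all tested probes. Leaving out dt27J 3 or WT 3 leaves only the first date for the comparison, and 6 members then passed, all higher: Cox8b, Cox6a2, Cox7a1, Atp5e, Ndufa7 and Ndufb11. In that fit 25.9% of all tested probes passed.

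**Figure D1:**
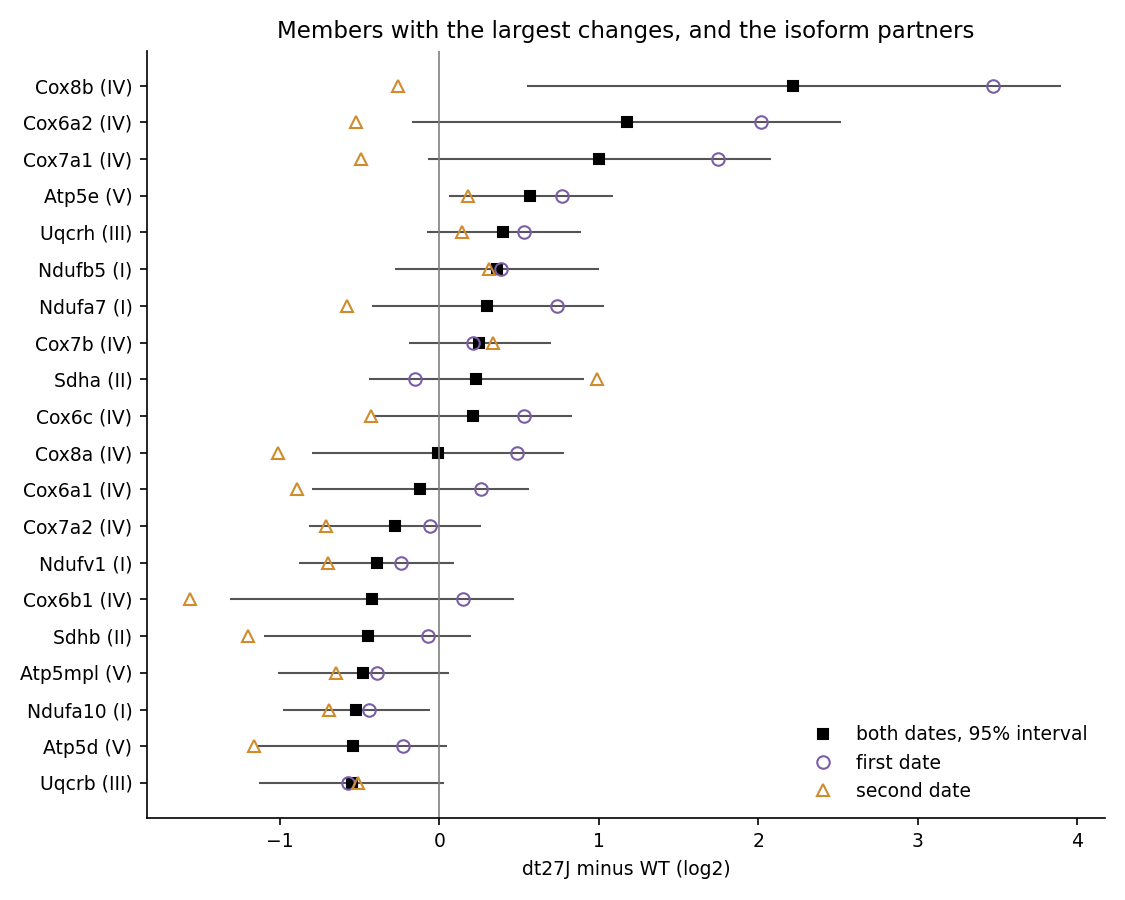
Difference between dt27J and WT on the log2 scale (x axis) for 20 members, with the complex in brackets. Squares and bars are the estimate over both dates and its 95% interval, circles the first date and triangles the second; Cox8b has the largest estimate, 2.22, and a second-date value of -0.26.

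The muscle isoforms of cytochrome oxidase had the largest differences of all members, and all 3 came from the first date. Cox8b, the muscle form of subunit 8, read 3.05, 2.95 and 1.0 in dt27J 1, 2 and 3, against -0.36, -0.57 and 1.26 in WT 1, 2 and 3. Both dt27J arrays of the first date lay far above both WT arrays of that date, whereas dt27J 3 lay below WT 3, so the genotypes overlap. Its means were 2.33 ± 1.16 in dt27J and 0.11 ± 1.0 in WT (SD, n = 3 each), a difference of 2.22 ± 0.70 (SE), or 4.67-fold, with an adjusted p of 0.104 (limma). The difference was 3.47 in the first date and -0.26 in the second.

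Cox6a2, the muscle form of subunit 6a, read 1.17, 2.38 and 0.91 in dt27J, against -0.16, -0.33 and 1.43 in WT. Again the 2 first-date WT arrays were lowest and WT 3 lay among the dt27J arrays. The difference was 1.18 ± 0.57 (SE, n = 3 each; adjusted p = 0.229), made of 2.02 in the first date and -0.52 in the second. Cox7a1, the muscle form of subunit 7a, read 4.34, 4.02 and 1.97 in dt27J, against 2.51, 2.35 and 2.46 in WT. Its WT arrays lay close together in both dates, and the spread was in dt27J, where dt27J 3 was the lowest array of all. The difference was 1.0 ± 0.45 (SE, n = 3 each; adjusted p = 0.205), with 1.75 in the first date and -0.49 in the second.

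The ubiquitous partners of these isoforms had estimates near 0. Cox8a read 6.75, 6.58 and 5.60 in dt27J, against 6.08, 6.28 and 6.61 in WT (-0.01 ± 0.33, SE, n = 3 each; adjusted p = 0.984). Cox6a1 read 8.85, 9.09 and 7.86 in dt27J, against 8.80, 8.62 and 8.75 in WT (-0.12 ± 0.28, adjusted p = 0.811). Cox7a2 read 5.86, 6.16 and 5.46 in dt27J, against 6.13, 6.02 and 6.17 in WT (-0.28 ± 0.23, adjusted p = 0.46). The 95% intervals ran from -0.80 to 0.78 for Cox8a, from -0.80 to 0.56 for Cox6a1 and from -0.82 to 0.26 for Cox7a2; a p that misses the threshold does not show that the genotypes are alike. In each of the 3 genes dt27J 3 was the lowest of the 6 arrays. The signs for Cox8a and Cox6a1 turn with the setting: Cox8a was 0.11 with normexp background correction and 0.06 with median scaling, and in the first date alone Cox8a was 0.49 and Cox6a1 0.26.

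A within-array difference between the muscle and the ubiquitous isoform cancels the scaling of the array. This difference was higher in dt27J by 2.24 for Cox8b against Cox8a (exact permutation p = 0.1, two-sided), by 1.28 for Cox7a1 against Cox7a2 (exact p = 0.1) and by 1.30 for Cox6a2 against Cox6a1 (exact p = 0.2). For the pair Cox6b2, a testis-enriched form, and Cox6b1 it was 0.58 (exact p = 0.2). With 3 arrays against 3 the smallest p possible is 0.1, and adjusted over the 4 pairs every p was 0.2. All 4 pairs had a higher difference in dt27J in both dates: in the second date 0.75 for the Cox8 pair, 0.22 for the Cox7a pair, 0.37 for the Cox6a pair and 1.23 for the Cox6b pair, from 1 array of each genotype. In that date both members of every pair were lower in dt27J, and the ubiquitous partner was the lower by more: -1.01 for Cox8a, -0.71 for Cox7a2, -0.89 for Cox6a1 and -1.56 for Cox6b1.

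**Figure D2:**
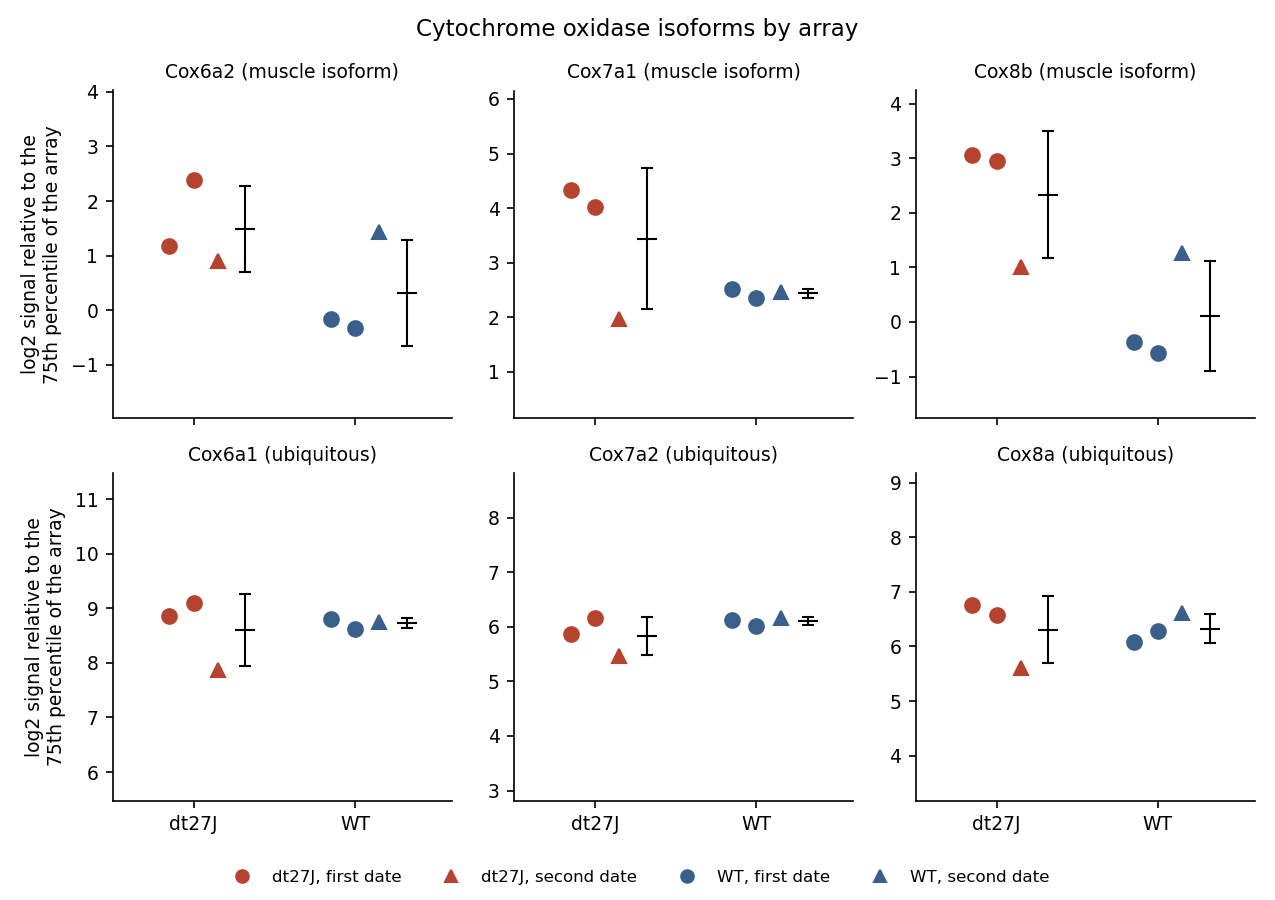
Log2 signal relative to the array's 75th percentile (y axes, of the same height in every panel) for each muscle isoform (top) and its ubiquitous partner (bottom), dt27J left and WT right, with mean and SD as black bars (n = 3 each). Circles are first-date and triangles second-date arrays; the first-date dt27J arrays of Cox8b (3.05 and 2.95) stand above its first-date WT arrays (-0.36 and -0.57), and the second-date arrays (1.0 and 1.26) do not differ in that way.

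Markers of skeletal muscle were higher in dt27J as well. All 18 genes of the muscle list were measured and all 18 were higher in dt27J, with a median difference of 1.47, against -0.05 over all tested probes; 4 passed the test, where 1.31% of all tested probes passed as higher. These were Mb, the oxygen-binding protein myoglobin (3.26 ± 0.55, adjusted p = 0.0471), the myosin heavy chain Myh1 (2.40 ± 0.41, adjusted p = 0.0472), the sarcomere protein Tcap (2.43 ± 0.31, adjusted p = 0.0413) and the troponin Tnnt3 (1.84 ± 0.28, adjusted p = 0.0442). In the second date these 4 were higher in dt27J too, by 2.13 for Mb, 2.18 for Myh1, 2.20 for Tcap and 1.2 for Tnnt3. A fit with date as a term favours genes that are alike in both dates. Other muscle genes were lower in dt27J in that date, as the 3 isoforms were. These were Actn3 (-0.58), Pvalb (-0.33), Mylpf (-0.32), Acta1 (-0.31), Myh4 (-0.31) and Atp2a1 (-0.17), and the rest of the list was higher. The list's summed signal, in multiples of the 75th percentile, was 111, 240 and 166 in dt27J, against 35.3, 34.7 and 126 in WT. As with Cox8b and Cox6a2, WT 3 was higher than WT 1 and WT 2; unlike them, dt27J 3 stayed above WT 3. The median difference of the muscle list was 2.19 in the first date and 0.20 in the second. All 7 slow or cardiac muscle markers were higher too, and 0 passed (median 1.64).

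Of the 5 measured fat markers 0 passed, and all 5 were higher in dt27J; their median difference was 2.20 in the first date and -1.22 in the second. The fat list summed to 57.1, 52.6 and 15.7 in dt27J, against 11.9, 10.6 and 36.4 in WT. The brown fat list summed to 34.8, 23.4 and 6.98 in dt27J, against 13.3, 10.1 and 12.8 in WT. Its 6 measured members had a median difference of 1.16 in the first date and -0.76 in the second. One of them, Dio2, which activates thyroid hormone, passed (1.11 ± 0.21, adjusted p = 0.0479), and it was higher in both dates (1.27 and 0.79). Ucp1, the uncoupling protein that defines brown fat, read 2.96, 1.70 and -0.70 in dt27J, against -0.24, -0.37 and 1.24 in WT; this gene is singled out after its values were seen, and it did not pass (adjusted p = 0.452). The part of muscle or fat RNA in the isoform differences was not tested. Erythroid markers summed to 571, 513 and 255 in dt27J, against 259, 271 and 360 in WT, and most of that sum is the globin genes Hbb-bt and Hba-a1. Of the 5 measured erythroid markers 0 passed. Hbb-bt (1.07 and -0.34), Hba-a1 (0.97 and -1.06) and Alas2 (0.67 and -0.39) were higher in dt27J in the first date and lower in the second. Slc4a1 (0.06 and 0.21) and Epb42 (0 and 0.65) did not follow them. Markers of spinal cord had sums of 0.321, 0.418 and 0.66 in dt27J, against 6.77, 6.80 and 0.643 in WT.

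**Figure D3:**
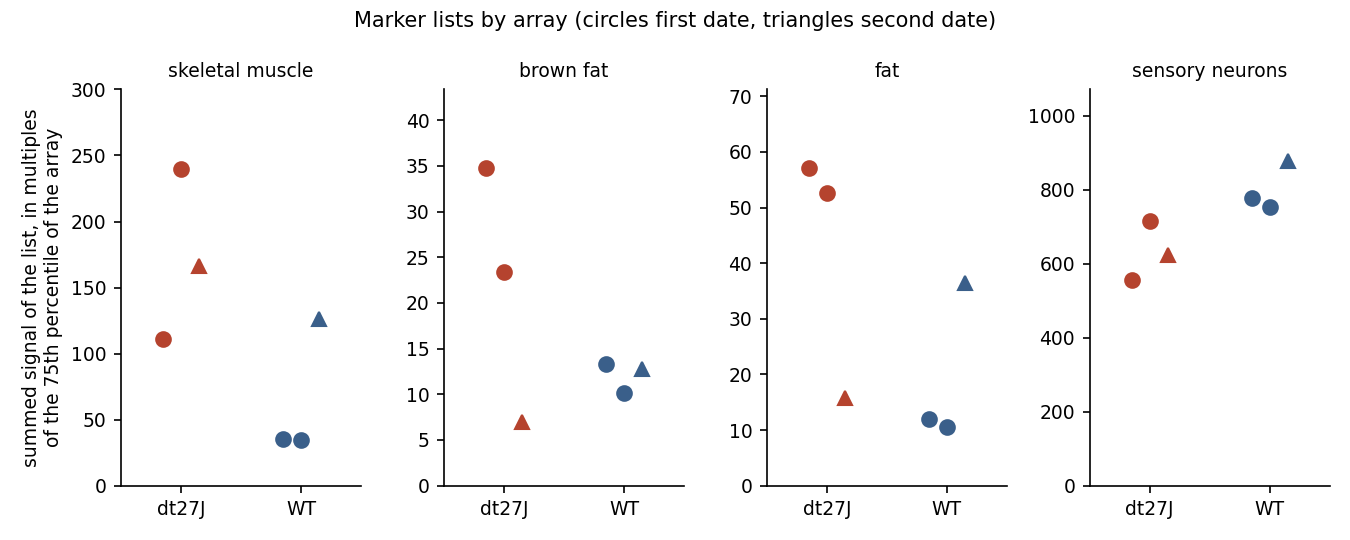
Summed signal of 4 marker lists on each array, in multiples of the array's 75th percentile (y axes from 0), dt27J in red on the left and WT in blue on the right, circles first date and triangles second date. The skeletal muscle sum is 111 to 240 in dt27J and 34.7 to 126 in WT, and the fat sum is lower in dt27J than in WT in the second date (15.7 and 36.4).

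Among the 35 complex I subunits, 15 were higher and 20 lower in dt27J, none past the threshold, with a median of -0.04. The 7 core subunits, which hold the flavin and the iron-sulfur clusters, had a median of -0.24 (5 of 7 lower), and the 28 accessory subunits a median of -0.03. By the brightest probe of each gene, the smallest p among them was that of Ndufa10, an accessory subunit with a nucleoside kinase fold. It read 1.72, 1.75 and 1.63 in dt27J, against 2.06, 2.29 and 2.31 in WT. All dt27J arrays lay below all WT arrays, by -0.44 in the first date and -0.69 in the second. The difference was -0.52 ± 0.19 (SE, n = 3 each), which is 69.6% of WT, with an unadjusted limma p of 0.031 and an adjusted p of 0.142.

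Ndufv1, the core subunit that binds NADH and flavin, was next lowest. It read 4.95, 5.13 and 4.63 in dt27J, against 5.23, 5.32 and 5.33 in WT (-0.39 ± 0.20, SE, n = 3 each; limma adjusted p = 0.259), with all dt27J arrays below all WT arrays. Ndufs1 (-0.29), an iron-sulfur core subunit, and Ndufa5 (-0.32), an accessory one, also had no overlap between genotypes. Dimmer probes gave lower values for some accessory subunits. Ndufv3 was -0.11 ± 0.25 on its brightest probe, but -0.65 ± 0.19 (adjusted p = 0.0948) and -0.71 ± 0.21 (adjusted p = 0.0955) on the other two, which are the smallest adjusted values of any member probe. Ndufa12 was -0.11 ± 0.20 on its brightest probe, and -0.37 ± 0.19 (adjusted p = 0.249) and -0.63 ± 0.23 (adjusted p = 0.14) on its others. Ndufab1, the mitochondrial acyl carrier protein, gave -0.37 with its brighter probe and 0.26 with the other, so its direction depends on the probe. The largest positive estimates were those of the accessory subunits Ndufb5 and Ndufa7. Ndufb5 read 2.63, 1.87 and 1.73 in dt27J, against 2.09, 1.63 and 1.43 in WT (0.36 ± 0.27, adjusted p = 0.413). Ndufa7 read 6.25, 6.03 and 5.06 in dt27J, against 5.46, 5.34 and 5.64 in WT (0.30 ± 0.30, adjusted p = 0.549). For Ndufa7 the first-date dt27J arrays were the highest of all and dt27J 3 the lowest.

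Complex II, the succinate dehydrogenase shared with the citric acid cycle, had a median of 0.08 over its 4 subunits, and none passed. Sdhb, the iron-sulfur subunit, read 3.73, 3.74 and 2.60 in dt27J, against 3.80, 3.82 and 3.80 in WT (-0.45 ± 0.27, SE, n = 3 each; limma adjusted p = 0.323). Nearly all of this came from dt27J 3, since the first-date arrays differed by -0.07. Sdha, the flavoprotein, read 0.83, 0.78 and 1.58 in dt27J, against 0.79, 1.12 and 0.58 in WT (0.23 ± 0.28, adjusted p = 0.621); here dt27J 3 was the highest array. The membrane anchors were Sdhd (0.13 ± 0.21, adjusted p = 0.702) and Sdhc (0.03 ± 0.21, adjusted p = 0.945).

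The 8 complex III subunits of the name rule, which leaves out Cyc1, had a median of -0.09. Uqcrb, a small subunit near the ubiquinone site, had the lowest estimate of all members by the brightest probe; it read 3.47, 4.21 and 3.70 in dt27J, against 4.42, 4.40 and 4.22 in WT (-0.55 ± 0.24, SE, n = 3 each; limma adjusted p = 0.2). The genotypes did not overlap, though dt27J 2 came within the last digit of WT 3, and the differences in the 2 dates were alike, -0.57 and -0.51. Uqcrh, the hinge protein beside cytochrome c1, read 7.61, 7.86 and 7.20 in dt27J, against 7.15, 7.25 and 7.06 in WT (0.40 ± 0.20, adjusted p = 0.247), and its second probe gave 0.39. Uqcrc1, a core protein, read 5.57, 5.53 and 4.66 in dt27J, against 5.42, 5.36 and 5.59 in WT (-0.20 ± 0.27, adjusted p = 0.65), and its second probe gave -0.48 ± 0.22 (adjusted p = 0.213). Uqcrq, a small subunit, read 7.41, 7.56 and 6.24 in dt27J, against 7.15, 6.93 and 6.94 in WT (0.06 ± 0.28, adjusted p = 0.91). For both genes dt27J 3 was the lowest array. Uqcrc2 (-0.17) and the Rieske protein Uqcrfs1 (-0.11) were each lower by less than 1 SE.

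The 11 ubiquitous complex IV subunits had a median of -0.12. Cox6b1, which faces the intermembrane space, read 2.03, 1.78 and 0.23 in dt27J, against 1.95, 1.55 and 1.79 in WT (-0.42 ± 0.37, SE, n = 3 each; limma adjusted p = 0.497). It was lower in dt27J 3 alone, and without the second date it was 0.15. Cox7b (0.25 ± 0.19, adjusted p = 0.412) and Cox6c (0.21 ± 0.26, adjusted p = 0.626) had the largest positive estimates. Cox7b had its lowest values on the second date in both genotypes (5.55 in dt27J 3 and 5.21 in WT 3). Cox4i1, the largest nuclear subunit, differed by 0.13. Cox7a2l was 0.33 ± 0.23 (adjusted p = 0.389). Cox7b2 and Cox8c, known from testis, were well above background on no array. Cox4i2, the isoform known from lung, was well above background on 1 dt27J array and on 3 WT arrays; it had no value on dt27J 3, where its spot was an outlier, so it has no fold change.

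The 17 subunits of ATP synthase had a median of -0.08 (5 higher, 12 lower). Atp5e, the epsilon subunit of the central stalk, read 7.51, 7.28 and 6.90 in dt27J, against 6.63, 6.61 and 6.73 in WT. Every dt27J array lay above every WT array, by 0.77 in the first date and 0.18 in the second. The difference was 0.57 ± 0.22 (SE, n = 3 each), or 1.49-fold, with an unadjusted limma p of 0.0337 and an adjusted p of 0.148. Atp5d, the delta subunit, which binds epsilon in the same stalk, went the other way. It read 3.95, 4.11 and 3.22 in dt27J, against 4.29, 4.24 and 4.38 in WT (-0.54 ± 0.25, adjusted p = 0.212), again without overlap. Atp5mpl, a small proteolipid of the membrane part, read 4.30, 4.87 and 3.73 in dt27J, against 4.98, 4.97 and 4.38 in WT (-0.48 ± 0.22, adjusted p = 0.223). The catalytic subunits Atp5a1 (-0.15) and Atp5b (-0.04) and the rotor subunit Atp5c1 (-0.08) differed by less than 1 SE. Atp5l, a membrane subunit, had the next positive estimate (0.17 ± 0.31, adjusted p = 0.745).

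The 10 assembly factors had a median of 0.01, from -0.33 for Ndufaf6 to 0.17 for Ndufaf4. Ndufaf6 read 0.94, 0.97 and 0.90 in dt27J, against 1.15, 1.12 and 1.53 in WT (-0.33 ± 0.20, SE, n = 3 each; limma adjusted p = 0.313). Probes disagreed in sign for Ndufaf7 (-0.10 and 0.28), for Ndufaf4 (0.17, 0.05 and -0.39) and for Atp5b (-0.13, -0.04 and 0.19).

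Beneath these small averages, the ubiquitous subunits lay mostly above WT in the first date and mostly below it in the second. In the first date 58 of 75 (77.3%) were higher in dt27J, with a median of 0.19. In the second 11 of 75 (14.7%) were higher, with a median of -0.65. The shares higher in the 2 dates were 49.5% and 42.7% over all tested probes. They were 66.3% and 22.2% over the 526 probes at least as bright as the median subunit. Over all tested probes the medians were -0.01 and -0.13. The median deviation from each subunit's own mean was 0.21, 0.27 and -0.58 in dt27J 1, 2 and 3, against 0.11, -0.01 and -0.01 in WT 1, 2 and 3. One array, dt27J 3, thus stood apart, and the 3 WT arrays lay close together. It was the lowest of the 6 arrays for 61 of 75 subunits (81.3%), against 27.5% of all tested probes and 50.6% of the 526 probes at least as bright as the median subunit. Within genotype, dt27J 3 lay 0.89 below dt27J 1 and 2 in the median and WT 3 lay 0.08 below WT 1 and 2. The subunits were chosen by name with earlier results of these data known, so these values are a description only. The second date holds 1 array of each genotype, so date, litter, slide and animal cannot be told apart there.

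**Figure D4:**
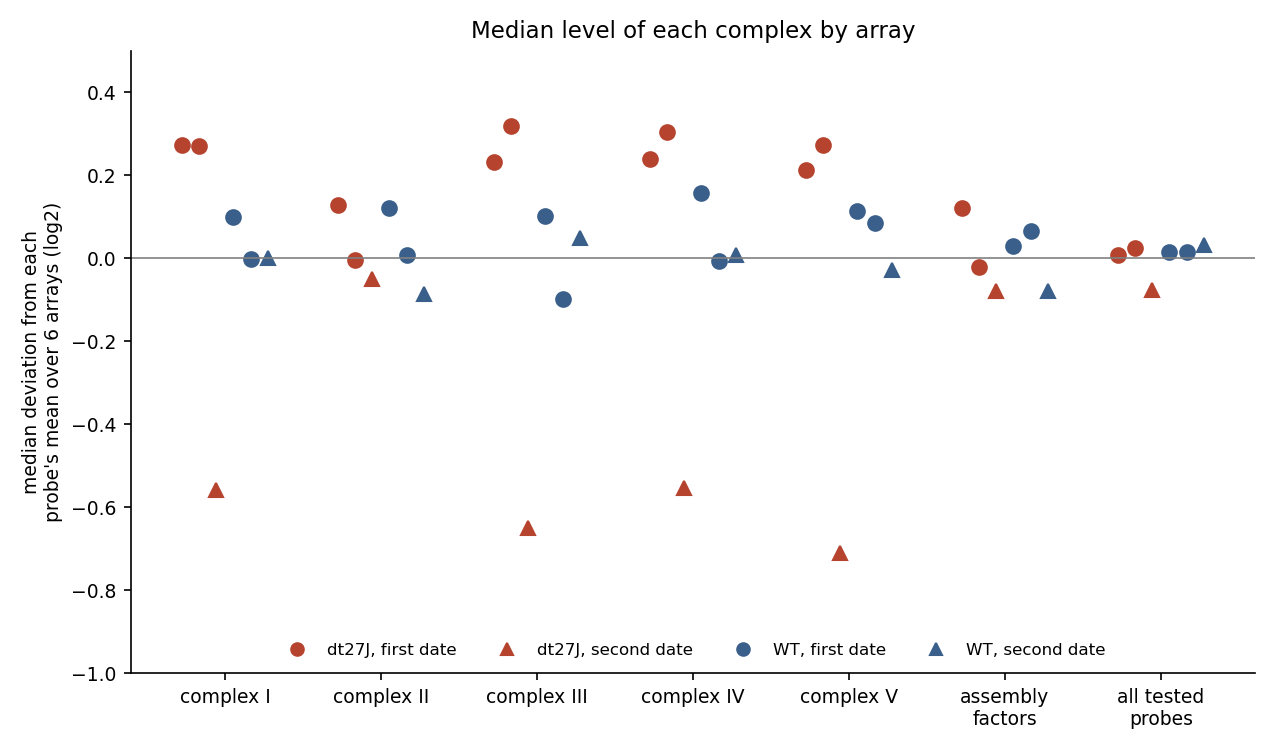
Median deviation of the members of each complex from their own mean over the 6 arrays (y axis, log2), by array, dt27J left of WT within each set. The array dt27J 3 (red triangle) lies between -0.55 and -0.71 for complexes I, III, IV and V, at -0.05 for complex II and at -0.08 for the assembly factors.

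The pattern was shared by the medians of complexes I, III, IV and V. These were 0.18, 0.24, 0.17 and 0.25 in the first date and -0.42, -0.72, -0.65 and -0.70 in the second. Within complex I, the 7 core subunits had a median of -0.04 in the first date (3 higher) and -0.315 in the second. The 28 accessory subunits had medians of 0.20 (24 higher) and -0.50. The medians were -0.07 in the first date and 0.04 in the second over the 4 genes of complex II, and -0.09 and 0.01 over the 10 assembly factors. The complex II genes went opposite ways, with Sdhb at -0.07 and -1.20 in the 2 dates, Sdhd at 0.27 and -0.14, Sdhc at -0.06 and 0.21 and Sdha at -0.15 and 0.99. Members differed in how far they followed it. Cox6b1 (-1.56), Atp5k (-1.41), Sdhb (-1.20), Atp5d (-1.16) and Ndufs8 (-1.15) were the furthest below WT in the second date, and Sdha (0.99) was the furthest above. Members with an ETS motif in the promoter window had medians of 0.25 and -0.65 in the 2 dates, and those without it 0.21 and -0.58.

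Other sets of genes shared the shift in part. The 82 cytosolic ribosomal protein genes measured had medians of 0.84 in the first date and -0.23 in the second, and the 78 mitochondrial ribosomal protein genes 0.19 and -0.44; both sets were added after the members' values were seen. Of the cytosolic set 100% and 26.8% were higher in dt27J in the 2 dates, and of the mitochondrial set 74.4% and 19.2%. The 526 bright probes named above had medians of 0.32 and -0.35. The median level was 5.36 for the subunits, 6.49 for the cytosolic set, 2.5 for the mitochondrial set and 6.1 for the bright probes. The part of signal brightness in the shift was not tested.

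**Figure D5:**
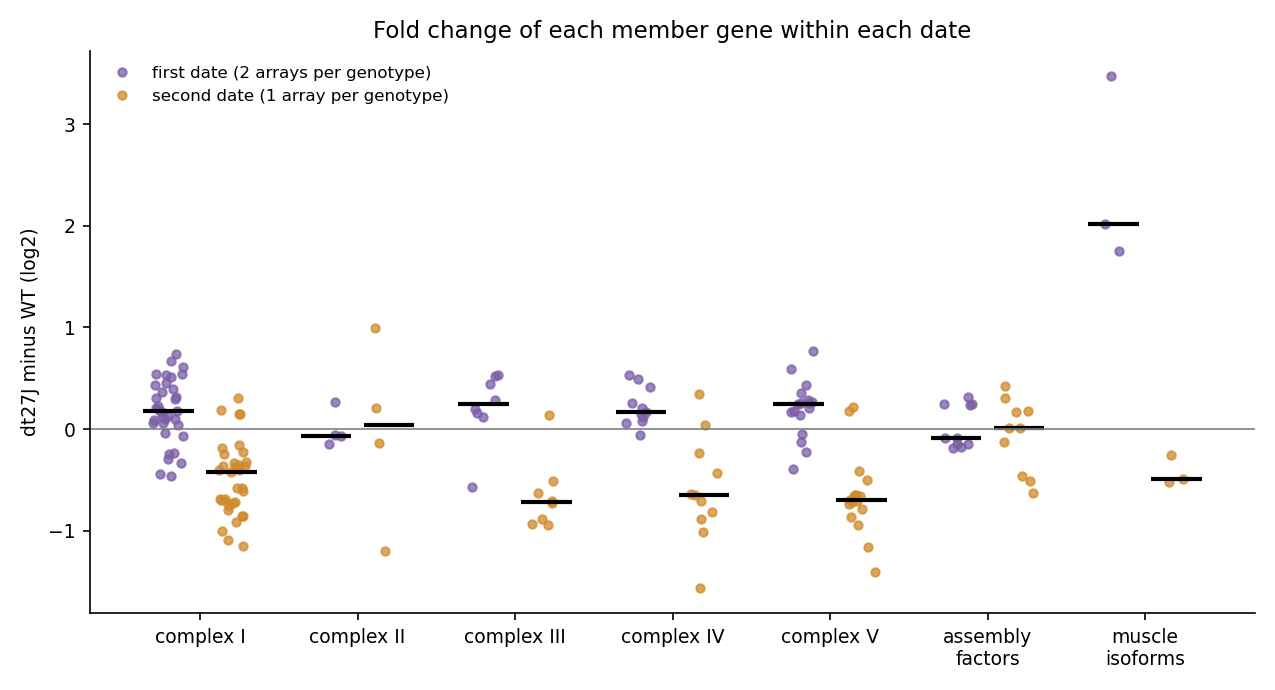
Difference between dt27J and WT (y axis, log2) of each tested member within the first date (left column of each set, 2 arrays per genotype) and the second date (right column, 1 array per genotype), with bars at the medians. Complexes I, III, IV and V have medians of 0.17 to 0.25 in the first date and -0.42 to -0.72 in the second, and the 3 muscle isoforms 2.02 and -0.49.

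Whether the genotype difference itself changed between dates was tested as an interaction. The second date holds 1 array of each genotype, so the error of this test comes from the first-date arrays and the prior. A change with date cannot be told from a difference of 1 animal. One member of 90, Cox8b, passed (second date minus first date -3.73, limma adjusted p = 0.022), against 0.831% of all tested probes. At an unadjusted p of 0.05, 47 members passed (52.2%), against 27.5% of all tested probes. The share was 37.1% for the 526 bright probes, and 58.5% and 38.5% for the cytosolic and mitochondrial ribosomal protein genes. The next smallest adjusted values were those of Cox7a1 (-2.24, adjusted p = 0.0545) and Ndufb11 (adjusted p = 0.0694). The date effect common to both genotypes passed for 0 of 90 members, against 0.107% of all tested probes.

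Genes outside the name rule that work in or beside the complexes gave no calls, where 3.19% of all tested probes passed. At that share, lists of this size would hold few calls. Cyc1, the cytochrome c1 of complex III (-0.44 ± 0.28, limma adjusted p = 0.347), and cytochrome c itself, Cycs (-0.12 ± 0.19, adjusted p = 0.704), did not pass. Of 18 measured cytochrome oxidase assembly genes 0 passed (6 higher, 12 lower, median -0.20), led by Cox10, which makes the heme A precursor (-0.71 ± 0.33, adjusted p = 0.219). Of 14 assembly genes of the other complexes 0 passed, and the smallest p was that of Timmdc1, a complex I assembly factor (0.99 ± 0.22, adjusted p = 0.0575). Of 16 regulators of mitochondrial biogenesis 0 passed (8 higher, 8 lower, median 0.04). The smallest p were those of the coactivator Ppargc1b (-1.0 ± 0.22, adjusted p = 0.0582) and the mitochondrial rRNA methyltransferase Tfb1m (-0.91 ± 0.21, adjusted p = 0.0628), both lower in both dates. Of 17 citric acid cycle genes 0 passed (6 higher, 11 lower, median -0.13). Glycolysis had 0 of 19 past the threshold, with 15 lower and a median of -0.36, against -0.05 over all tested probes. The list's medians were alike in both dates (-0.43 and -0.30), but its genes were not all so. For example, Hk1 (-2.15 and 0.21) and Pfkp (-1.15 and 0.02) were lower in the first date alone. Gpi1 (0.15 and -0.85) and Ldha (0.17 and -0.68) were lower in the second alone. The glycolytic enzymes Gapdh (-0.93 ± 0.21, adjusted p = 0.0582) and Pkm (-0.86 ± 0.20, adjusted p = 0.0585) were lower, and Pgam2, the muscle phosphoglycerate mutase (1.70 ± 0.37, adjusted p = 0.0572), was higher, none past the threshold. Of 10 measured nucleotide carriers, porins and uncouplers 0 passed (median -0.16).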

How the data were processed

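Dorsal root ganglion RNA of 3 dt27J and 3 WT mice, 300 ng each, was hybridised to single-colour arrays. The authors scanned the arrays with Agilent Feature Extraction 10.5.1.1, per the submitters' processing notes; the deposited processed signal is, per the file headers, an intensity after background subtraction and spatial detrending, not normalized between arrays. The authors' deposited log2 table has every probe centred on its median; how they normalized it is not stated, and it served as an alternative.

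From these, log2 processed signal minus each array's 75th percentile was computed, leaving out control spots and outlier spots and averaging repeated spots. The percentile was taken over all non-control spots, outliers included. This version was kept after the call counts of 4 versions had been seen, because it gave the same counts as the earlier results of these data; it calls 344 probes higher and 494 lower, and the others 343 and 499, 338 and 471, and 338 and 471. No member passed under any of them. Probes well above background on all 3 arrays of a genotype were tested (26248 of 41174) with limma 3.58.1 in R 4.3.3, genotype and date as terms, Benjamini-Hochberg adjustment over all tested probes and a threshold of 0.05. The fit has 3 residual degrees of freedom and 3.74 from the prior, so the number of arrays limits the precision. Scripts were tested on simulated data.

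Probes were named through RefSeq transcripts (GRCm38.p6), which named 73.8% of tested probes; the brightest tested probe stands for a gene. Isoform pairs were compared with an exact permutation test over arrays. The members and lists were chosen with earlier results of these data known. Any member may be named; in each complex the 2 largest and 2 lowest estimates and the smallest p by the brightest probe are given with their errors, and in other lists the genes past the threshold and up to 3 with the smallest p. The normexp alternative used the median signal, where the plan named the mean signal. Samples are labelled as separate animals. The p-values measure the spread between them, which for the interaction is the spread within the first date alone.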

Additional observations from a re-analysis of the deposited data

Results flagged for a closer look

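Cox8b differed between the dates in its genotype effect. The difference between dt27J and WT was 3.47 in the first date and -0.26 in the second, and the interaction term was -3.73 (limma adjusted p = 0.022). The second date holds 1 array of each genotype. Cox8b was higher in dt27J on both first-date arrays and lower on the second-date array. The muscle and fat marker sums are given beside the isoforms, and their part in it was not tested.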

How the results depend on the processing

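With 3 arrays per genotype, and 1 per genotype in the second date, the number of arrays limits all of these values. The count of members past the threshold was 0 in each direction under both normexp settings, 3 other versions of the 75th percentile, quantile and median scaling, the authors' deposited values, no filter and the stricter filter, no date block, probe means, and the replicate block. With the replicate block 0 members and 2 of all probes passed. Same-numbered arrays correlated at 0.22, -0.15 and 0.06, and differently numbered ones at -0.29 to 0.23, so a pairing by number was not shown. With 3 arrays per genotype, each set against its group mean, such values cannot exclude a pairing. Array weights gave 10 members higher and 1 lower, with 46.5% of all probes called and a fit that stopped before its tolerance was reached; Cox6a2 was then 1.88, Cox7a1 1.55, Cox8b 3.19, the complex II median -0.027, Cox6a1 0.14 and Cox8a 0.50. The first date alone gave 6 higher, with Cox6a2 2.02, Cox7a1 1.75, Cox8b 3.47, complex II -0.068, Cox6a1 0.26, Cox8a 0.49 and Cox6b1 0.15. Cox8a was also 0.11 with normexp, 0.03 with normexp and high backgrounds replaced, and 0.06 with median scaling. Leaving out 1 array in turn gave 0 to 6 members higher and 0 lower, Cox6a2 0.59 to 2.02, Cox7a1 0.70 to 1.75, Cox8b 1.81 to 3.47, the complex II median -0.068 to 0.154, Cox6a1 -0.30 to 0.26, Cox8a -0.21 to 0.49 and Cox6b1 -0.70 to 0.15; each upper end, and the lower end of complex II, came without dt27J 3 or WT 3, apart from the complex II upper end, without WT 1. The median of the ubiquitous subunits ran from -0.149 to 0.186. Over all probes the calls ran from 0 without dt27J 1 or WT 2, or with no filter, to 5776 higher and 6423 lower with array weights. The cause was not tested. The 4 percentile versions and the replaced backgrounds were chosen after seeing the data.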
